A study of Mus musculus with 2 samples.

Results

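The 10 genes of the histone deacetylation and demethylation machinery described here are Hdac1 to Hdac8, Kdm1a, which encodes the demethylase LSD1, and Rcor1, which encodes its partner CoREST. They were chosen by gene symbol, and are 10 of the 54680 loci in the gene table. All 10 were found, and all 10 reached 1 FPKM in at least 1 library, as did 10671 genes in all. FPKM (fragments per kilobase of gene model) was scaled here to the same depth of 18731117 reads in both libraries. Ratios of FPKM are thus not scaled to each library's own total, while the read ratios below are. The cells were CT26, a mouse colon cancer line. In the knockdown culture a lentivirus delivered a short hairpin RNA against Setdb1. In the control culture, labelled wild type, the virus carried only the empty knockdown vector. Both cultures were collected after 6 days, and the knockdown cells are described in the labels as differentiated. Each group had 1 library, so every difference below describes these 2 libraries and has no replicate check. In such bulk RNA, fewer cells of a type and less RNA per cell cannot be told apart.

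Histone deacetylases take acetyl groups off lysines, on histones and on other proteins, and on chromatin this usually goes with lower transcription. Class I enzymes are mostly nuclear. HDAC1 and HDAC2 work in the NuRD, SIN3 and CoREST complexes, HDAC3 works with the corepressors NCoR and SMRT, and HDAC8 acts outside these complexes and deacetylates cohesin. Class IIa enzymes have little catalytic activity of their own, bind MEF2 transcription factors and move between nucleus and cytoplasm, held in the cytoplasm by 14-3-3 proteins once phosphorylated. HDAC6, of class IIb, is cytoplasmic and deacetylates tubulin. LSD1 removes methyl groups from lysine 4 of histone H3. CoREST links LSD1 to HDAC1 or HDAC2 and, through the factor REST, to neuronal genes, which are kept silent in other tissues. SETDB1 methylates lysine 9 of histone H3, another mark of silent chromatin.

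RefSeq promoter windows of 300 bases (250 before and 50 after an annotated start, build GRCm38.p6) were matched by symbol for 8 of the 10 genes, with 11 windows among them. Shown are those of Hdac4 and Hdac5, members of one class whose levels differed in opposite directions, and of Kdm1a and Rcor1, the pair whose levels were lower by a like factor. Capitals mark the GC box, GGGCGG on either strand. The windows lie at chr1:92180292-92180591 (Hdac4, minus strand), chr11:102230123-102230422 (Hdac5, minus strand), chr4:136602674-136602973 (Kdm1a, minus strand) and chr12:111039117-111039416 (Rcor1, plus strand), and each is written 5′ to 3′ on the strand of its gene.
Hdac4: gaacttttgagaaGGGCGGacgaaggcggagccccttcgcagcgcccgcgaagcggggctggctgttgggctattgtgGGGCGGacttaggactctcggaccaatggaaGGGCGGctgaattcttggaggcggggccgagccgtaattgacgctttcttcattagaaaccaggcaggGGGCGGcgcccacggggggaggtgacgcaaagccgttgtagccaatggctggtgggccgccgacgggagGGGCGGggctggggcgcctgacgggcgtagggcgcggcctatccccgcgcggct
Hdac5: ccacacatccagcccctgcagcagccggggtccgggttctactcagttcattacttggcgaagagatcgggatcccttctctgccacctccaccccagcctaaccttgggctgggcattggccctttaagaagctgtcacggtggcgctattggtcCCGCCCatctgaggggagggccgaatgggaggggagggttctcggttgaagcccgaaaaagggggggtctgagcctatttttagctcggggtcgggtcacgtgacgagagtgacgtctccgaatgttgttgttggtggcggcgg
Kdm1a: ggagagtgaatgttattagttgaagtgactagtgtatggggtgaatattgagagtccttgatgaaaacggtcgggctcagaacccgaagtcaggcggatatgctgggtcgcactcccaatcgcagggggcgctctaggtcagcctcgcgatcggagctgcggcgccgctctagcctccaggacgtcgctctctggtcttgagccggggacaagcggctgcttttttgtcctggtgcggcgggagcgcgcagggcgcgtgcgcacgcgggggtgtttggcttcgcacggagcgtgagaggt
Rcor1: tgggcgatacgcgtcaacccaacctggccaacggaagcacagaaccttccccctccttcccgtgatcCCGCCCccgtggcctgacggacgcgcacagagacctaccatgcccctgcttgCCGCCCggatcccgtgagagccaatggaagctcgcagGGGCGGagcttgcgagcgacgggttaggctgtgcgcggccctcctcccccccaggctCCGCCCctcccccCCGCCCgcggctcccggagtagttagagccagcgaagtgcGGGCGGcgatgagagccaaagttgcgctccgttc
The GC box stood 5 times in the Hdac4 window, 1 time in that of Hdac5, 6 times in that of Rcor1 and 0 times in that of Kdm1a. It was in 35.7% of all 32851 RefSeq windows of this length. CCAAT on either strand was found in all 4 windows and in 37.4% of all windows. TATAAA and TTCNNNGAA, the gamma-activated site, were in none of the 4. They were in 13.6% and 8.30% of all windows. ACGTG, the core of the hypoxia response element, was in the Hdac5 window at 1 place, where overlapping matches on both strands form CACGTG, and in 19.6% of all windows. These matches describe letters in a window and are not measured binding. The Hdac4 window is set around a RefSeq start that lies 15358 bases inside the gene model of the deposited table, and which start the cells used was not measured.

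The control library held 18421604 reads and the knockdown library 19045830. Setdb1 itself, the target of the hairpin, was at 10.4 FPKM in control cells and 2.47 FPKM in knockdown cells, 23.7% of the control level. Of 12 markers of colon epithelium, 4 reached 1 FPKM in at least 1 library and 3, Epcam, Cdh1 and Cdx1, had no read in either library. Krt19 (0.029 and 1.53 FPKM) and Cdh17 (0.251 and 1.56 FPKM) reached it only in knockdown cells. The summed level of the 12 markers was 44.1 FPKM in control cells and 130 FPKM in knockdown cells, mostly from Krt18 and Krt20. The 6 mesenchymal markers summed to 940 and 969 FPKM, mostly from Vim, at 752 and 835 FPKM, while the 3 collagen genes were lower (Col1a1 32.1 and 24.0, Col1a2 139.6 and 94.1, Col3a1 2.68 and 0.887 FPKM). Of 7 leukocyte markers only Cd68 reached 1 FPKM, at 10.4 and 100.2 FPKM, while Cd3e, Adgre1 and Itgam had no read, and the 4 endothelial markers had 1 read in all. What part these markers had in the results below was not tested.

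**Figure D1:**
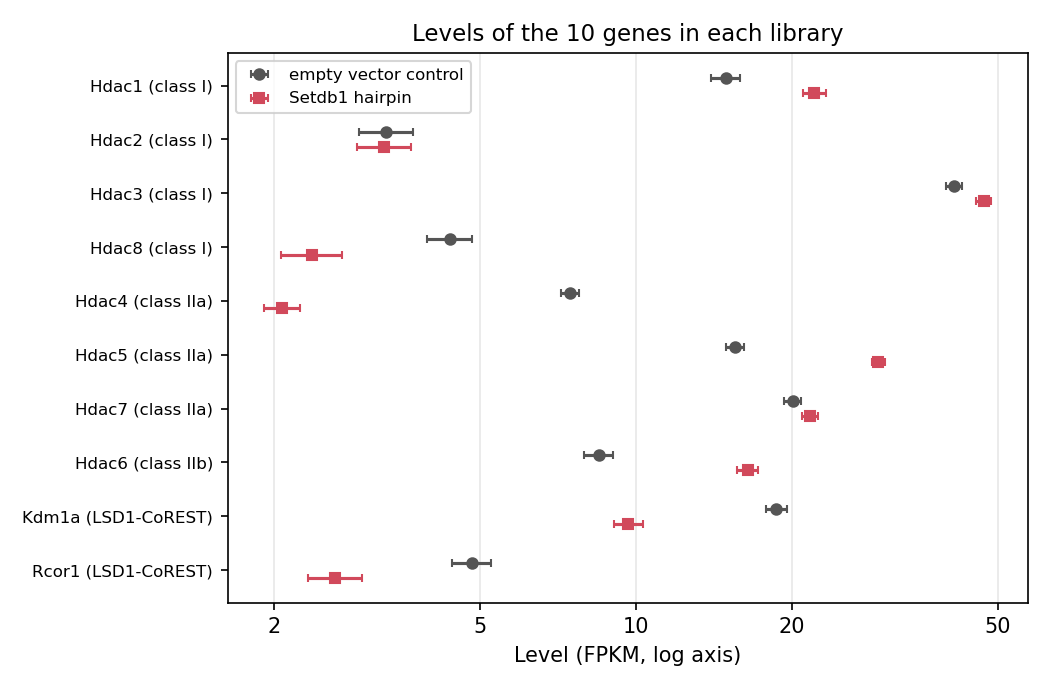
Levels of the 10 genes in FPKM (log axis) in the control library (circles) and the knockdown library (squares), with 95% exact Poisson intervals that cover counting error only. Hdac4 goes from 7.47 to 2.08 FPKM and is the lowest of the 10 in knockdown cells, while the points of Hdac2 nearly coincide.

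In the control library the order of the levels was Hdac3 (41.2 FPKM), Hdac7 (20.1), Kdm1a (18.7), Hdac5 (15.5), Hdac1 (14.9), Hdac6 (8.48), Hdac4 (7.47), Rcor1 (4.83), Hdac8 (4.37) and Hdac2 (3.29). Neighbours whose counting intervals overlapped there were Hdac7 with Kdm1a, Hdac5 with Hdac1, and Rcor1 with Hdac8. In the knockdown library Hdac3 was again the highest, at 47.0 FPKM. Hdac5 (29.4 FPKM) came next, then Hdac1 (22.1), Hdac7 (21.7), Hdac6 (16.5), Kdm1a (9.67), Hdac2 (3.27), Rcor1 (2.63), Hdac8 (2.37) and Hdac4 (2.08). Here the intervals of Hdac1 and Hdac7 overlapped, as did those of each pair of neighbours from Hdac2 down to Hdac4. Kdm1a went from rank 3 to rank 6 and Hdac4 from rank 7 to rank 10, while Hdac5 went from rank 4 to rank 2. The FPKM of a gene is set per length of its model, which is 15813 bases for Hdac4 and 3445 to 8780 bases for the other 9.

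Of the 10 genes, 5 were higher and 5 lower in knockdown cells. Differences are given as log2 ratios of (FPKM + 1), knockdown over control, and a gene was called when it differed 2-fold or more on that scale. Hdac4 was the 1 member called, and it was lower. Among all 10671 genes 11.7% were called, 4.85% lower and 6.81% higher. At 1.5-fold, 2 members were higher (Hdac5 and Hdac6) and 4 lower (Hdac4, Kdm1a, Rcor1 and Hdac8), where all genes gave 16.9% higher and 14.3% lower. The median log2 ratio was 0.05 over the members and -0.00039 over all genes, so the opposite differences within the group left its centre near 0. On the reads alone, an exact two-sided binomial test against the library totals, with Benjamini-Hochberg adjustment over all genes, had an adjusted p under 0.05 for 8 of the 10 members and for 74.8% of all genes. It compares these libraries, not the conditions, and the 2 members that did not pass were Hdac2 and Hdac7.

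**Figure D2:**
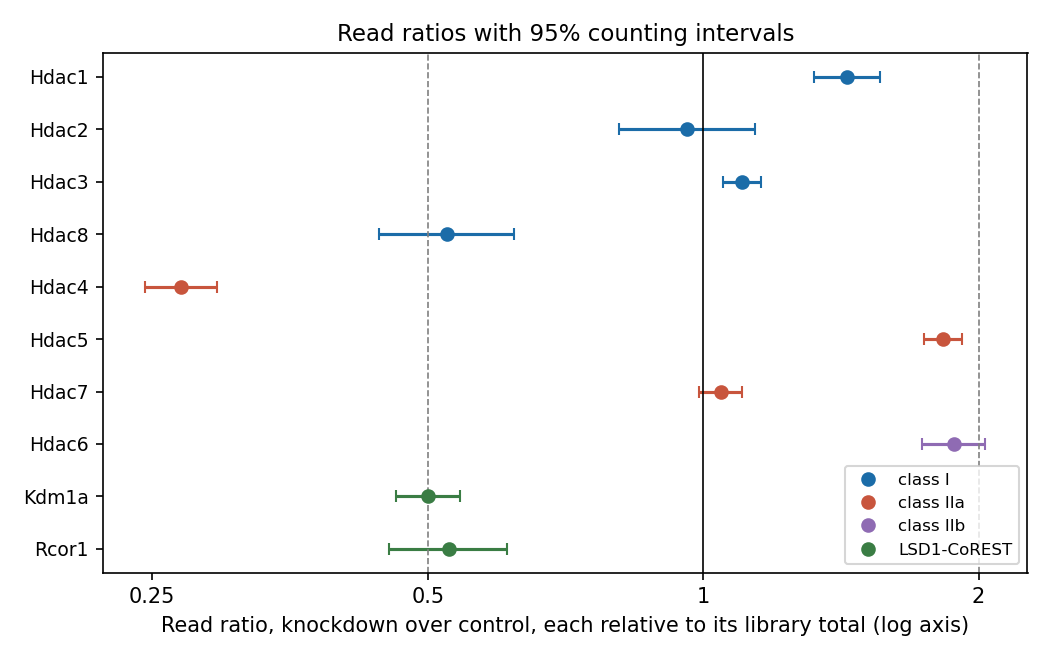
Read ratio of each gene, knockdown over control, each relative to its library's total (log axis), with 95% exact binomial (Clopper-Pearson) intervals. Dashed lines stand at ratios of 0.5 and 2, and colours give the class. The interval of Hdac4, 0.246 to 0.294, lies wholly below 0.5, and those of Hdac2 and Hdac7 hold 1.

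In class I, Hdac1 was higher and Hdac8 lower, Hdac3 was slightly higher, and Hdac2 was within counting error of its control level. Their summed level was 63.8 FPKM in control cells and 74.8 FPKM in knockdown cells, a log2 ratio of 0.23. The summed reads, 4743 and 5463, gave a read ratio of 1.11 (1.07 to 1.16). All intervals given in this way are 95% exact binomial intervals on reads relative to each library's total. They cover counting error only, since each group had 1 library. PCR copies without molecular identifiers are not independent molecules, so even the counting error may be larger than the intervals show.

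Hdac1 (ENSMUSG00000028800, chromosome 4, 129516104 to 129542713, minus strand, GRCm38) had 963 reads in control cells and 1429 in knockdown cells. Its log2 ratio was 0.54 and its read ratio 1.44 (1.32 to 1.56), the highest of class I. Its protein annotation in the deposited table is shared by 9 other loci, of which 1, with 87 and 134 reads, had any. With those reads added, the log2 ratio was 0.55. Hdac2 (ENSMUSG00000019777, chromosome 10, 36974544 to 37001889), the close paralog of Hdac1 and its usual partner, had 276 reads in control cells and 274 in knockdown cells. Its log2 ratio was -0.01. The read ratio, 0.960, had an interval of 0.809 to 1.14. Within the control library the level of Hdac1 was 4.53 times that of Hdac2, and within knockdown cells it was 6.77 times. The odds ratio of the reads, in which library size cancels, was 1.49 (exact interval 1.24 to 1.81). The balance of the paralogs was thus shifted towards Hdac1 by more than counting error. An effect of GC content does not cancel in it. After the correction for GC content and gene length described below, the log2 ratios were 0.51 for Hdac1 and 0.14 for Hdac2.

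Hdac3 (ENSMUSG00000024454, chromosome 18, 37935844 to 37954988), the catalytic subunit of the NCoR and SMRT complexes, was the most abundant of the 10 in both libraries. It had 3108 reads in control cells and 3545 in knockdown cells, with a log2 ratio of 0.19. The read ratio was 1.10 (1.05 to 1.16). Hdac8 (ENSMUSG00000067567, chromosome X, 102284639 to 102505359) was the 1 class I gene clearly below its control level, with 396 control and 215 knockdown reads. Its log2 ratio was -0.67 and its read ratio 0.525 (0.443 to 0.622). The level of Hdac3 was 9.43 times that of Hdac8 in control cells and 19.8 times in knockdown cells, an odds ratio of 2.10 (1.76 to 2.51).

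In class IIa the members parted. Hdac4 fell, Hdac5 was higher, and Hdac7 was within counting error of its control level. Hdac4 (ENSMUSG00000026313, chromosome 1, 91928779 to 92195699, minus strand) had 2212 reads in control cells and 615 in knockdown cells. The log2 ratio was -1.46, lower than for 98.5% of the 10671 genes, and the reads were 3.72-fold lower (3.40 to 4.07). Hdac4 kept this call under every scaling run, with a pseudocount of 0.1, and once GC content and gene length were corrected for.

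Hdac5 (ENSMUSG00000008855, chromosome 11, 102194432 to 102230166, minus strand), which like Hdac4 binds MEF2 factors, was at 15.5 FPKM (2556 reads) in control cells and 29.4 FPKM (4835 reads) in knockdown cells. Its log2 ratio of 0.88 was short of the 2-fold call, and its read ratio was 1.83 (1.74 to 1.92). Hdac7 (ENSMUSG00000022475, chromosome 15, 97792664 to 97844502, minus strand) had 2543 and 2747 reads, a log2 ratio of 0.11. The read ratio was 1.04 (0.990 to 1.10). Its model shares 29 exon bases with Slc48a1 on the other strand, a gene with 6225 and 7154 reads, and the strand setting of the counting is not given in the sources used here.

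The level of Hdac5 was 2.08 times that of Hdac4 in control cells and 14.2 times in knockdown cells. The odds ratio of their reads, Hdac5 to Hdac4, was 6.80 (6.14 to 7.54), the widest of the 7 pairs compared. Hdac5 stood at 0.773 times the level of Hdac7 in control cells and at 1.35 times in knockdown cells, an odds ratio of 1.75 (1.63 to 1.88). As shares of the class IIa sum, Hdac4 went from 17.3% to 3.90%, Hdac5 from 36.1% to 55.3% and Hdac7 from 46.6% to 40.8%. The sum itself was 43.1 FPKM in control cells and 53.2 FPKM in knockdown cells, a log2 ratio of 0.30. The summed reads, 7311 and 8197, gave a read ratio of 1.08 (1.05 to 1.12). The class total was thus higher although Hdac4 was lower.

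Hdac6 (ENSMUSG00000031161, chromosome X, 7930120 to 7947889, minus strand), the tubulin deacetylase, was at 8.48 FPKM (924 reads) in control cells and 16.5 FPKM (1794 reads) in knockdown cells. The log2 ratio of 0.88 was the highest of the 10, and the read ratio was 1.88 (1.73 to 2.04). Its interval reached past 2, and the log2 ratio was higher than for 91.2% of all genes.

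**Figure D3:**
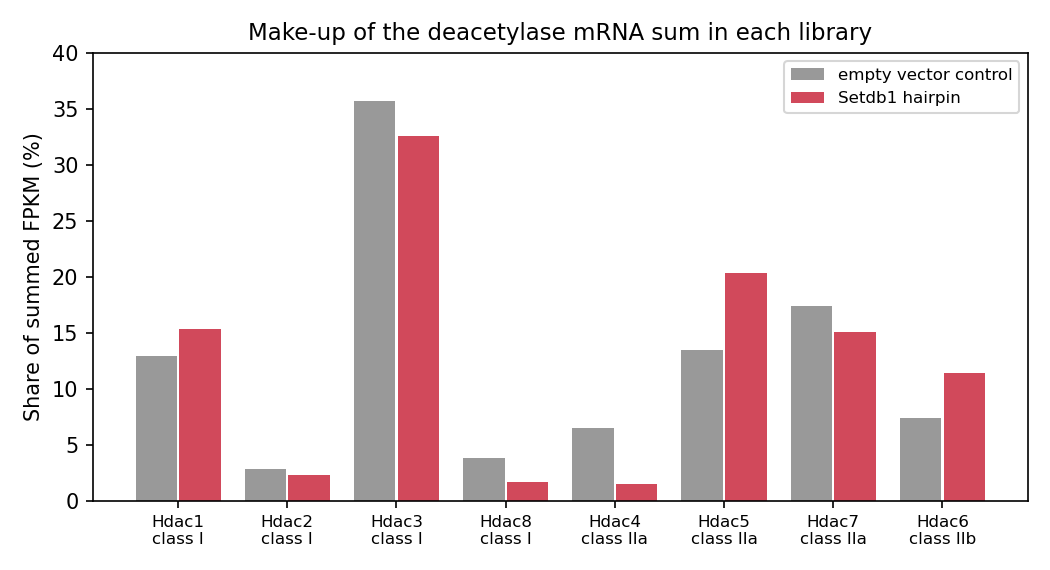
Share of each deacetylase in the summed FPKM of Hdac1 to Hdac8 (percent) in the control library (grey) and the knockdown library (red), 1 library each and so without error bars. Hdac5 goes from 13.5% to 20.4% and Hdac6 from 7.35% to 11.4%, while Hdac4 goes from 6.47% to 1.44% and Hdac8 from 3.79% to 1.64%.

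The 8 deacetylases together summed to 115 FPKM in control cells and 144 FPKM in knockdown cells, a log2 ratio of 0.32. Class I made up 55.3% of the sum in control cells and 51.8% in knockdown cells, and class IIa 37.4% and 36.8%. Hdac3 alone took 35.7% and 32.5%. The largest gain in share was that of Hdac5, with 13.5% and 20.4%.

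Both genes of the LSD1-CoREST pair were at about the same fraction of their control levels. Kdm1a (ENSMUSG00000036940, chromosome 4, 136550540 to 136602723, minus strand) was at 18.7 FPKM (1812 reads) in control cells and 9.67 FPKM (938 reads) in knockdown cells, 51.8% of the control. Its log2 ratio was -0.88, and its read ratio of 0.501 had an interval of 0.462 to 0.542. The gene lay just outside the 2-fold call. Its span overlaps that of Luzp1 on the other strand, a gene with 450 and 246 reads, and no annotated exon base is shared.

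Rcor1 (ENSMUSG00000037896, chromosome 12, 111039351 to 111115901, plus strand) had 514 reads in control cells and 280 in knockdown cells, 54.5% of the control FPKM. Its log2 ratio was -0.68 and its read ratio 0.527 (0.454 to 0.611). The level of Kdm1a was 3.87 times that of Rcor1 in control cells and 3.68 times in knockdown cells. The odds ratio of 0.95 had an interval of 0.803 to 1.13, so a shift in the balance of these genes was not detectable at this depth. The pair summed to 23.5 FPKM and 12.3 FPKM, a log2 ratio of -0.88.

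Against the deacetylases that share the complex, the relative level of Kdm1a was lower after knockdown. Hdac1 stood at 0.799 times the level of Kdm1a in control cells and at 2.29 times in knockdown cells, an odds ratio of 2.87 (2.55 to 3.22). For Hdac2 the level was 0.176 times that of Kdm1a and then 0.338 times, an odds ratio of 1.92 (1.59 to 2.32). In the control library Kdm1a was above Hdac1, and in knockdown cells below it.

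**Figure D4:**
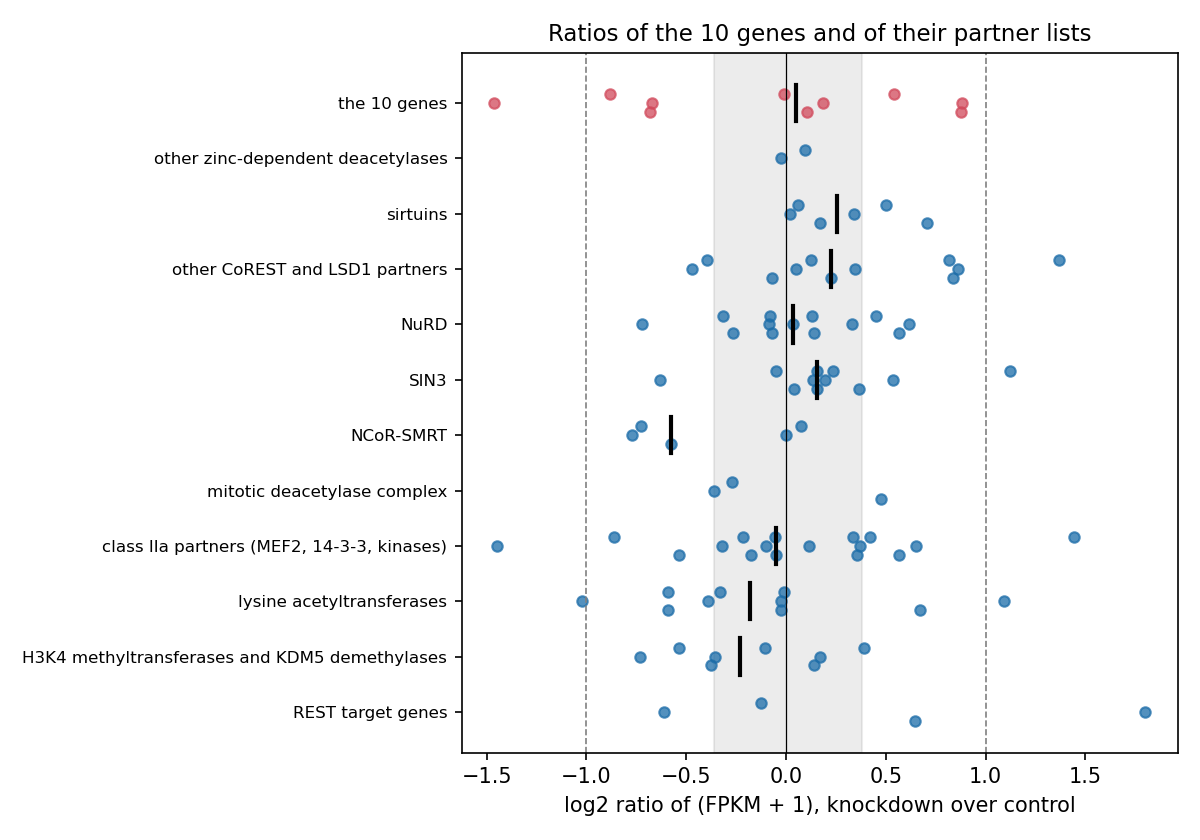
Log2 ratios of (FPKM + 1), knockdown over control, for the 10 genes (top, red) and for the partner genes at 1 FPKM or more (blue), 1 point a gene. Black bars are medians of groups of at least 5 genes, the grey band spans the quartiles of all genes (-0.36 to 0.38), and dashed lines mark 2-fold. Rcor2, Sik1 and Unc13a are the points furthest right, and Ywhaz stands beside Hdac4 on the left.

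The other genes of the pathway were taken from 11 lists of partners, with 121 entries, all found in the table. Of these, 90 reached 1 FPKM in at least 1 library. On them 5 were called higher and 2 lower, and their median log2 ratio was 0.04. As for the 10 members, these counts stand beside 6.81% and 4.85% of all genes.

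Among the other partners of CoREST and LSD1, a paralog of Rcor1 went the other way. Rcor2 (ENSMUSG00000024968, chromosome 19, 7267325 to 7275225), which also binds LSD1, rose from 10.1 FPKM (592 reads) to 27.6 FPKM (1622 reads). Its log2 ratio was 1.37 and its read ratio 2.65 (2.41 to 2.92). The level of Rcor2 was 2.09 times that of Rcor1 in control cells and 10.5 times in knockdown cells, an odds ratio of 5.03 (4.21 to 6.01), for a pair chosen after its values were seen. Of the 14 genes on the list, 11 reached 1 FPKM, 8 of them higher and 3 lower, with a median of 0.22. Of the 11, 4 were at least 1.5-fold higher and 0 as much lower, beside 16.9% and 14.3% of all genes. With GC content and gene length corrected for, the counts were 3 higher and 1 lower, since Hmg20b was then at 0.56 and Ctbp1 at -0.68. The 4 genes at least 1.5-fold higher before that correction were Rcor2, Hmg20b (0.82), a subunit of the complex, Gse1 (0.86) and the corepressor Ctbp2 (0.84). Apart from Rcor2, they were named after their values were seen. Ctbp1, the more abundant paralog of Ctbp2, had the lowest ratio, -0.47, from 99.8 to 71.6 FPKM. Rest, also named afterwards, had 399 and 489 reads and a log2 ratio of 0.22.

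The REST target genes were mostly under 1 FPKM in both libraries. Of 20, 4 reached 1 FPKM, and 8 had no read in either library. The 16 genes under 1 FPKM had 151 reads together in control cells and 51 in knockdown cells. They had to stay under 1 FPKM in both libraries, so a gene that rose past it, as Unc13a did, is not among them. The sum thus gives no direction for the list. Most of its control reads came from L1cam (50 and 0 reads), Chrnb2 (39 and 19) and Syt4 (38 and 4), while Celsr3 had 2 and 17. Unc13a (chromosome 8, 71624417 to 71671757), which primes synaptic vesicles, rose from 0.550 FPKM (130 reads) to 4.39 FPKM (1038 reads), with a log2 ratio of 1.80. The read ratio was 7.72 (6.43 to 9.34). It passed the 1 FPKM filter only through the knockdown library, and it overlaps Colgalt1, on the other strand, by 495 bases. Bdnf, a neurotrophin gene, had the lowest ratio, -0.61, with 213 and 99 reads. Its level, 1.83 and 0.850 FPKM, reached 1 FPKM only in the control library. Of the 4 genes that passed the filter, 2 were higher and 2 lower.

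Among the scaffold genes of the class I complexes, 0 NuRD genes and 1 SIN3 gene were called, where 11.7% of all genes were. Counts this small on lists of 13 genes do not tell these complexes from all genes. All 13 NuRD genes reached 1 FPKM, 7 higher and 6 lower, with a median of 0.04 and 0 called. Scaling by the libraries' own read totals put that median at -0.01. NuRD ratios ran from -0.72 for Mta1, which went from 78.5 to 47.1 FPKM, to 0.62 for the remodeller Chd4, which went from 32.2 to 49.8 FPKM. Of the SIN3 genes, 11 of 13 reached 1 FPKM, 9 higher and 2 lower, with a median of 0.16. Over all genes 5293 were higher and 5336 lower. The read ratio intervals of Sin3a, Brms1, Brms1l and Ing2, all counted as higher, held 1. Sap30, a subunit that joins SIN3 to the deacetylases, rose from 209 to 481 reads (log2 ratio 1.12). Ing1, which reads methylated histone tails, was lowest at -0.63.

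The NCoR and SMRT genes, whose complexes hold HDAC3, had the lowest median of the lists, -0.58 over 5 genes, 4 of them lower. None was called. Gps2 was lowest at -0.77, from 23.4 to 13.3 FPKM, and Ncor1, named after its values were seen, was at -0.73, with 1264 and 668 reads. Tbl1xr1 was highest at 0.07. Over the same libraries Hdac3 was at 0.19. In the mitotic deacetylase complex, Trerf1 was at 0.48, Dnttip1 at -0.27 and Mideas, listed under its older symbol, at -0.36.

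Among the partners of class IIa enzymes (MEF2 factors, 14-3-3 proteins and kinases), 17 of 22 genes reached 1 FPKM, and 2 were called. Sik1 (chromosome 17, 31844248 to 31855792), a kinase that phosphorylates class IIa deacetylases, rose from 5.01 FPKM (423 reads) to 15.3 FPKM (1294 reads), with a log2 ratio of 1.44. The read ratio was 2.96 (2.65 to 3.31). Ywhaz (chromosome 15, 36770770 to 36796929), a 14-3-3 gene, fell from 141 FPKM (10880 reads) to 51.1 FPKM (3940 reads), with a log2 ratio of -1.45. The read ratio was 0.350 (0.338 to 0.363). Its protein annotation is shared by 1 other locus with 266 and 75 reads. The median of the list was -0.05, with 8 genes higher and 9 lower, and it was 0.13 once GC content and gene length were corrected for. Mef2b, counted as higher, reached 1 FPKM only in the knockdown library (0.418 and 1.10 FPKM).

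Of the lysine acetyltransferase genes, which write the mark that deacetylases remove, 10 of 11 reached 1 FPKM, with 2 higher, 8 lower and a median of -0.18. Over all genes 5293 were higher and 5336 lower. Kat5 (-0.01), Kat2b (-0.03) and Kat7 (-0.03), counted as lower, were near 0, and the read ratio intervals of Kat5 and Kat2b held 1. Kat6a (chromosome 8, 22859535 to 22943259) fell from 857 to 334 reads (log2 ratio -1.02). Atat1, the tubulin acetyltransferase and so the counterpart of HDAC6, rose from 118 to 348 reads (log2 ratio 1.09). It overlaps an antisense locus with 19 and 23 reads. Both calls were lost once GC content and gene length were corrected for, with ratios of -0.90 and 0.96. The coactivators Ep300 and Crebbp, named after their values were seen, were both at -0.59. Of the other zinc-dependent deacetylases, Hdac10 was at -0.02 and Hdac11 at 0.09, while Hdac9, of class IIa, had 53 and 16 reads and reached at most 0.193 FPKM.

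Ratios in these libraries moved with GC content. Over 10516 genes with a transcript sequence, the median log2 ratio was -0.18 in the fifth of genes with the lowest GC content and 0.20 in the fifth with the highest. The members spanned 41.9% GC (Hdac2) to 60.2% GC (Hdac7). With GC content and gene length corrected for, the log2 ratios were -1.36 for Hdac4, -0.94 for Kdm1a, -0.65 for Rcor1 and -0.53 for Hdac8. They were 0.82 for Hdac6, 0.69 for Hdac5, 0.51 for Hdac1 and 0.23 for Hdac3. Hdac7 went from 0.11 to -0.11 and Hdac2 from -0.01 to 0.14, so the 2 members nearest to 0 changed sign.

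**Figure D5:**
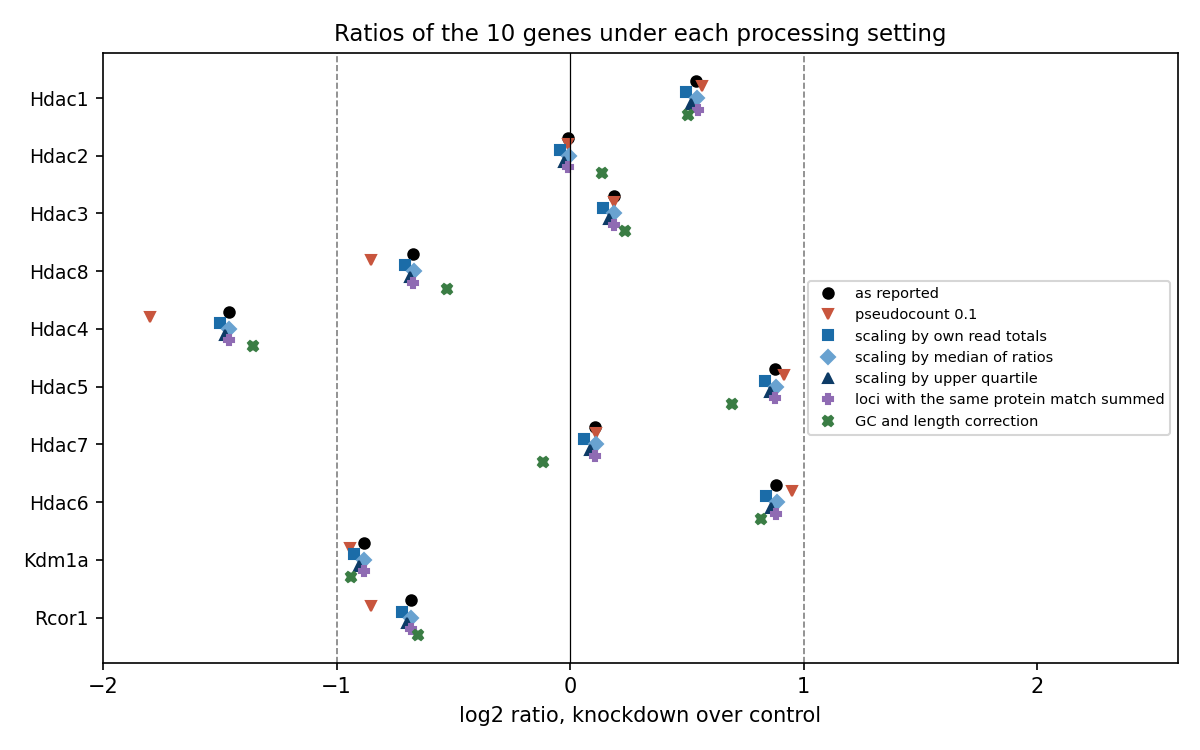
Log2 ratio of each gene, knockdown over control, as reported (black) and under each processing alternative, with dashed lines at 2-fold. Hdac4 stays left of the 2-fold line, between -1.80 and -1.36, and Hdac7 lies on either side of 0.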

How the data were processed

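RNA sequencing libraries of 2 CT26 cultures, knockdown and control, were compared, with groups taken from the genotype in the labels. The authors deposited FPKM per gene. Per the submitters' processing notes, CASAVA, HISAT2, featureCounts 1.5.0-p3 and build GRCm38 were used. Filters, strand and batch are not given in the sources used here. Both columns use the same depth of 18731117 reads. FPKM times gene length gave whole reads for 100% of values (tolerance 0.01). The totals' ratio was 1.03.

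Log2 ratios used a pseudocount of 1. Counts took in genes that reached 1 FPKM in either library, and a symbol on several loci was read from the locus with most reads. Members and lists were chosen with earlier results of these data known. Named genes were the members, Setdb1, the highest and lowest gene of each list and those past 2-fold. With 1 library per group, no p-value compares the conditions. Alternatives were a pseudocount of 0.1, scaling by read totals, median ratio or upper quartile of reads, filters, a 1.5-fold threshold, the binomial test, protein-coding genes only, locus sums and means. The correction for GC content and length (lowess, span 0.3) was chosen after seeing the data. Calculations were tested on simulated data. Of the 10 members, 9 had the same position in GENCODE M21. Software was matplotlib 3.10.9, statsmodels 0.14.6, scipy 1.17.1, pandas 2.3.3 and numpy 2.4.6 under Python 3.11.15.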

Additional observations from a re-analysis of the deposited data

How the results depend on the processing

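Of 206 alternative values, 188 moved by less than counting error (for counts, less than 1.5 times) and 18 by more. With a pseudocount of 0.1 Hdac4 was at -1.80. With GC content and length corrected for, Hdac5 was at 0.69, Hdac7 at -0.11 and the class IIa partners at 0.13. The count of members past the threshold was 6 at 1.5-fold and 8 by the binomial test, as those rules make it, and 1 under the other 8 settings. With own read totals the class IIa sum was at 0.25 and the sum of 8 deacetylases at 0.27. With a filter at 5 FPKM the CoREST and LSD1 partners were at 0.83, a median that the filter itself raises, since Gse1 and Ctbp2 passed it only through the knockdown library. With that filter the H3K4 methyltransferases and KDM5 demethylases were at 0.032, over only Kmt2b, Kmt2d, Setd1a and Kdm5c. The mean of the NCoR and SMRT genes was -0.40. The NuRD median, 0.04, was -0.017 with that filter. Of genes outside the 10, Unc13a was at 2.79, Atat1 at 1.49, Kat6a at -1.32 and Setdb1 at -2.04 with the pseudocount of 0.1, and Rcor2 was at 1.11, Sik1 at 1.27 and Ywhaz at -1.36 under the GC and length correction. Medians were compared with the median counting interval of their genes. Other than for the stated constructions, the cause was not tested. Across all genes, 2-fold calls went from 1245 to 2004 with the pseudocount of 0.1, and higher genes made up 727 of the 1245 and 678 of 1249 with own read totals. No paired analysis was possible because neither group had more than 1 library, and no library could be left out. The fewest reads behind a member's value were 215 (Hdac8, knockdown).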

Other observations

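Other groups border on the 10 genes. Sirtuins, deacetylases that use NAD in place of zinc, had 6 of 7 genes at 1 FPKM, all with a log2 ratio above 0, except that Sirt6 relative to the libraries' own totals had a read ratio of 0.984 (0.864 to 1.12). The median of the 6 log2 ratios was 0.25, and 0 were called. Sirt7, a nucleolar enzyme, was highest at 0.70, from 534 to 931 reads, and Sirt6 lowest at 0.02. The seventh, Sirt1, had 21 control and 5 knockdown reads. With GC content and length corrected for, Sirt6 was at -0.22, so a common direction of the sirtuins depended on the scaling and on that correction.

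Genes that write or remove methylation of histone H3 lysine 4, the mark that LSD1 acts on, had a median of -0.23. Of 10 such genes, 8 reached 1 FPKM, with 3 higher, 5 lower and 0 called. Kdm5a, counted as lower, reached 1 FPKM only in the control library (1.66 and 0.833 FPKM). With a filter at 5 FPKM the median was 0.032, over only Kmt2b, Kmt2d, Setd1a and Kdm5c. Setd1b was lowest at -0.73, from 1036 to 534 reads, and the demethylase gene Kdm5c highest at 0.39, from 2853 to 3788 reads.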
